A study of Homo sapiens with 8 samples.

Results

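The H3K36me3 peaks of chromosome 1 are described here in HepG2, an established line from a human liver cancer, in cells that carried either an shRNA against SETD2 or a control shRNA without a specific target. Each condition had an H3K36me3 immunoprecipitate and an input, with 2 replicates of each, and the replicates were pooled before peaks were called, so there is 1 peak list per condition. Filtered immunoprecipitated tags came to 67053273 in the knockdown and 47880817 in the control. The spread between replicates is therefore unknown, and the conditions could not be tested against each other. In both conditions the shRNA was brought in by lentivirus, harvested at 48 and 72 h and added with polybrene at 4 µg/mL, and the cells were selected with puromycin at 1 µg/mL. Neither the remaining level of SETD2 nor the identity of the cells was checked here. Members are the peaks of either list that lie on chromosome 1 of the hg19 build: 6583 of 58863 peaks in all, made up of 3092 of the 23488 peaks of the SETD2 knockdown list and 3491 of the 35375 peaks of the control list. The chromosome was selected on a measured value, the covered length of the knockdown list as a share of the control list, which was the highest of the 23 chromosomes compared. That value, the share of control peaks kept and the tag densities come from the same contrast, so they are given as a description. The short arm is taken as peaks that end below 121500000 and the long arm as peaks that start above 142500000, and no peak lay in neither arm.

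SETD2 is the methyltransferase that places the trimethyl mark on lysine 36 of histone H3 in human cells. It travels with elongating RNA polymerase II, so the mark lies over the bodies of transcribed genes and is usually strongest towards their ends. It is read by proteins such as the DNA methyltransferase DNMT3B and the mismatch repair protein MSH6. Chromosome 1 is the longest human chromosome, with a gene-dense outer part of its short arm and a large block of heterochromatin on the long arm beside the centromere. Peaks were not assigned to genes, since gene coordinates of the hg19 build were not used here.

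The length covered by knockdown peaks, relative to that covered by control peaks, was larger on chromosome 1 than on the other chromosomes together. Its 3092 peaks covered 15.0 Mb, and the 3491 control peaks covered 21.8 Mb, a covered length share of 68.7%. This share is a ratio of 2 lengths and counts knockdown peaks that lie on no control peak, which covered 2.54 Mb of the 15.0 Mb. On all other chromosomes the knockdown peaks covered 95.6 Mb and the control peaks 206.7 Mb, a share of 46.3%. Chromosome 1 held 13.6% of the covered length of the knockdown list and 9.56% of that of the control list. A knockdown peak lay over 1852 of the 3491 control peaks (at least 1 bp), which is 53.1% (exact binomial 95% interval 51.4 to 54.7%, counting error only). Over all control peaks of the genome that share was 39.5%, and over those of the other chromosomes it was 38.0% (37.5 to 38.5%).

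The share of knockdown peaks without a control peak was also higher than on the other chromosomes together. Of the chromosome 1 knockdown peaks, 740 of 3092 overlapped no control peak, or 23.9% (22.44 to 25.48%). The same share was 17.0% over the whole knockdown list and 15.9% (15.4 to 16.4%) on the other chromosomes. By this share chromosome 1 ranked 5 of 23, and it held 18.5% of all peaks found in the knockdown alone.

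Both arms had nearly the same covered length share. On the short arm the knockdown covered 9.02 Mb and the control 13.1 Mb, or 68.71%. On the long arm the values were 5.996 Mb in the knockdown and 8.72 Mb in the control, or 68.74%. The arms were less alike in the overlap of their peaks. Control peaks were kept in 49.3% of cases on the short arm (47.2 to 51.5%) and in 58.5% on the long arm (55.9 to 61.1%). Knockdown peaks on no control peak made up 29.8% on the short arm (27.7 to 31.9%) and 15.4% on the long arm (13.5 to 17.5%).

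The equal arm totals hid a step within the short arm. In 5 Mb bins counted from the end of the short arm, bins 1 to 11 (0 to 55 Mb) had shares of 32.5 to 68.1%. In bins 12 to 18 (55 to 90 Mb) the knockdown covered more length than the control, and in bin 19 (90 to 95 Mb) it covered 92.6% as much. The largest share was in bin 14 (65 to 70 Mb), where 631.0 kb in the knockdown stood against 190.9 kb in the control, or 330.5%. Its neighbour bin 13 (60 to 65 Mb) had 648.6 kb in the knockdown and 632.6 kb in the control. In bins shifted by 2.5 Mb the largest share of the chromosome was 183.6%, so the size of the maximum depended on the bin borders. Bin 17 (80 to 85 Mb) had 77.1 kb in the knockdown and 30.2 kb in the control, too little to enter the order of bins, which asked for at least 100 kb in the control. Bins 12, 15, 16 and 18 had shares of 101.8, 123.8, 121.6 and 130.4%. The lowest share of the chromosome was in bin 2 (5 to 10 Mb), with 226.4 kb in the knockdown and 697.4 kb in the control. Bins 4, 3 and 6 followed with 36.1, 36.8 and 37.4%.

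**Figure D1:**
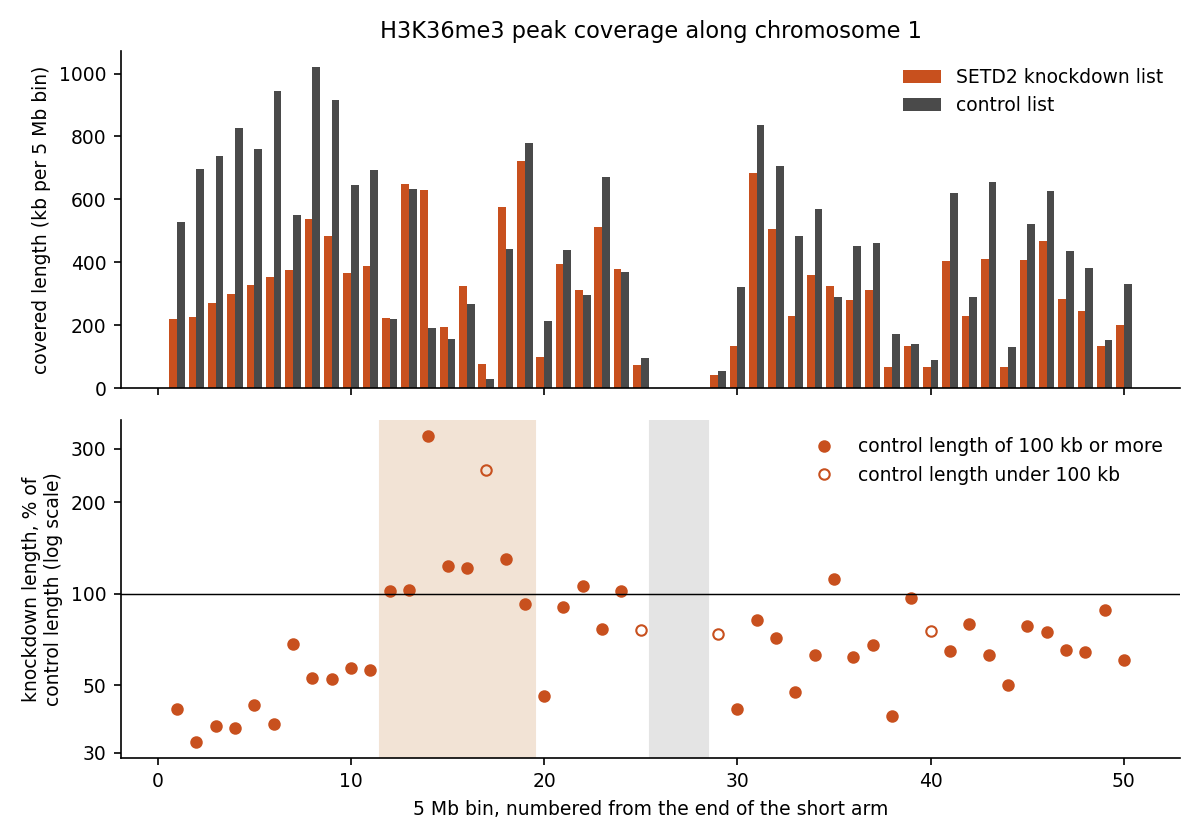
Covered length of H3K36me3 peaks in 5 Mb bins along chromosome 1 (upper panel, kb per bin, knockdown bar left of control bar) and knockdown length as a percent of control length (lower panel, log scale). The orange band marks bins 12 to 19, where shares ran from 92.6% to 330.5%, against 32.5 to 68.1% in bins 1 to 11. In bins shifted by 2.5 Mb (not drawn) the largest share of the chromosome was 183.6%. The grey band marks bins 26 to 28, which hold no peak.

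Chromosome 1 held 9 of the 17 bins of the genome in which the knockdown covered more than the control. They are 9 of its 43 bins with at least 100 kb in the control, or 20.9% (10.0 to 36.0%), against 8 of 473 on the other chromosomes (1.69%) and 3.29% over all 516 bins. The 8 were not spread evenly: chromosome 5 held 4 among its 30 bins, and chromosome 6 held 2 among its 32. Of the 9, 6 lay between 55 and 90 Mb. The others were bin 22 (105 to 110 Mb, 106.0%), bin 24 (115 to 120 Mb, 102.5%) and, on the long arm, bin 35 (170 to 175 Mb, 112.0%). The 3 bins with the most control length were bin 8 (35 to 40 Mb), with 538.5 kb in the knockdown and 1021.5 kb in the control, bin 6 (25 to 30 Mb), with 353.6 kb in the knockdown and 945.2 kb in the control, and bin 9 (40 to 45 Mb), with 482.3 kb in the knockdown and 917.4 kb in the control. Their shares ran from 37.4 to 52.7%.

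Summed over the stretches, which were set after the bins were seen, the knockdown covered 3.40 Mb and the control 2.72 Mb at 55 to 95 Mb, a share of 125.0%. At 0 to 55 Mb the values were 3.85 Mb in the knockdown and 8.32 Mb in the control, or 46.2%, close to the 46.3% of the other chromosomes. From 95 Mb to the end of the short arm the share was 85.0%. Per Mb of sequence, the knockdown covered 85.0 kb at 55 to 95 Mb and 70.0 kb at 0 to 55 Mb. The control covered 68.0 kb per Mb at 55 to 95 Mb and 151.3 kb per Mb at 0 to 55 Mb. The stretches thus differed by less in the knockdown list than in the control list, and in the opposite direction.

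The bins at 55 to 95 Mb are set here beside bins with like control coverage. The stretch was set after its shares were seen, so its high values are no further support. Among bins with 100 to 300 kb in the control, the 4 at 55 to 95 Mb had a median share of 122.7%, and the 178 of the other chromosomes had 41.1% (quartiles 29.8 and 54.9%), with 6 of the 178 above 100%. Among bins with 600 kb or more in the control, the 2 at 55 to 95 Mb had 92.6 and 102.5%, and the 9 at 0 to 55 Mb had a median of 43.2% (range 32.5 to 56.8%). The 112 such bins of the other chromosomes had a median of 46.4% and a maximum of 75.1%. Across bins, Spearman's rho between control length and share was -0.41 on chromosome 1 (n = 43 bins) and 0.08 on the other chromosomes (n = 473). The bins of a chromosome share the same 2 pooled libraries, and control length is also the denominator of the share.

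Without 55 to 95 Mb, chromosome 1 was no longer first in covered length share. Its share was then 60.7%, below the 62.5% of the whole of chromosome 5. The stretch left out was set for its high shares, so a fall was fixed in advance. No other chromosome had such a stretch left out. The share of control peaks kept was 50.8% without this stretch (49.0 to 52.6%), still above the 48.9% of chromosome 12, the next. The share of knockdown peaks on no control peak was 14.36% (12.97 to 15.83%), against 15.9% on the other chromosomes.

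**Figure D2:**
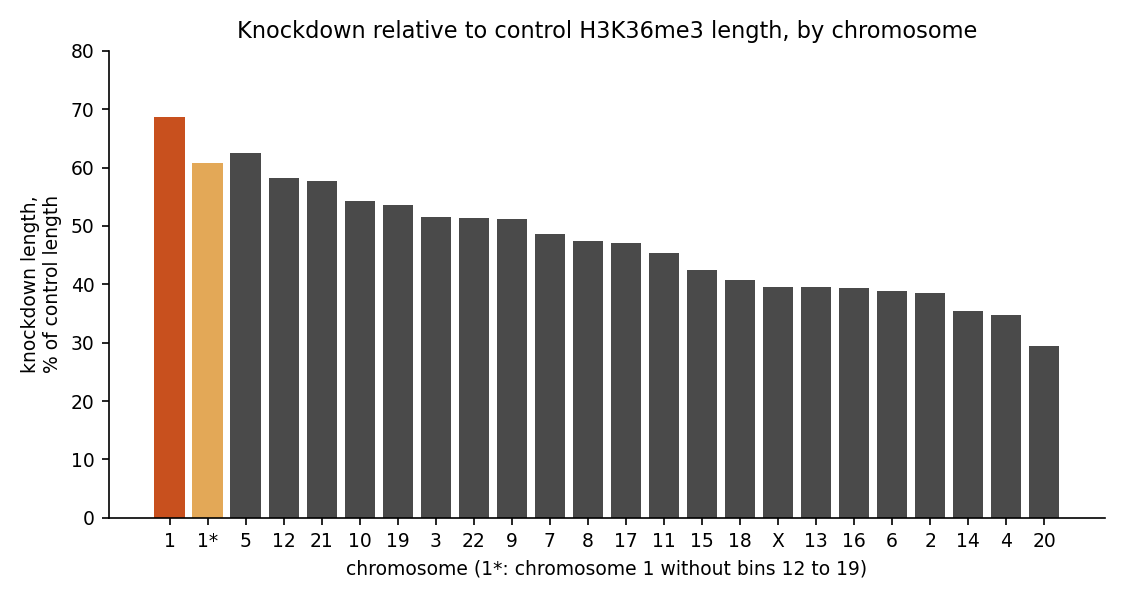
Knockdown covered length as a percent of control covered length for chromosomes 1 to 22 and X, with chromosome 1 given whole (1, 68.7%) and without bins 12 to 19 (1*, 60.7%). The next chromosome, 5, had 62.5%, and chromosome 20 had the lowest share, 29.4%. No stretch was left out of the other chromosomes.

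The knockdown peaks with no control peak lay mainly at 55 to 95 Mb. This stretch held 397 of the 740, against 56 at 0 to 55 Mb, 93 from 95 Mb to the arm's end and 194 on the long arm. They made up 56.5% of the knockdown peaks at 55 to 95 Mb (52.7 to 60.2%), against 17.0% over the whole knockdown list. At 0 to 55 Mb they made up 6.95% (5.29 to 8.93%). They covered 1.30 Mb at 55 to 95 Mb and 0.262 Mb at 0 to 55 Mb. Bin 14 (65 to 70 Mb) alone held 132 of them, out of 150 knockdown peaks there. In bins 1, 2 and 8 of the short arm, which held 58, 52 and 108 knockdown peaks, each overlapped a control peak. The stretch at 55 to 95 Mb was set for its high shares of knockdown length. An excess there of knockdown peaks without a control peak, also by width, is thus no separate support.

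At 55 to 95 Mb, knockdown peaks without a control peak were narrower and weaker in the median than those on control peaks. Those without one had a median width of 2.33 kb and a median fold enrichment of 3.31. The knockdown peaks of the same stretch on control peaks had medians of 4.82 kb and 3.86. On the other chromosomes the medians were 3.36 kb and 3.52 off control peaks, and 3.28 kb and 3.76 on them. At 0 to 55 Mb they were 2.93 kb and 4.08 off control peaks, and 3.12 kb and 3.91 on them. Fold enrichment is the authors' own value per peak, the caller's ratio over local background. In the main results it only ranks or classes peaks within a list, and an alternative run set a limit on it in both lists. By width, peaks on no control peak made up 81.6% of the knockdown peaks of up to 2 kb at 55 to 95 Mb (75.3 to 86.9%). They made up 8.02% at 0 to 55 Mb (4.56 to 12.9%) and 17.6% on the other chromosomes (16.4 to 18.7%). Above 20 kb they were 2 of 15 knockdown peaks at 55 to 95 Mb, 1 of 13 at 0 to 55 Mb and 7.03% on the other chromosomes (4.22 to 10.9%).

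**Figure D3:**
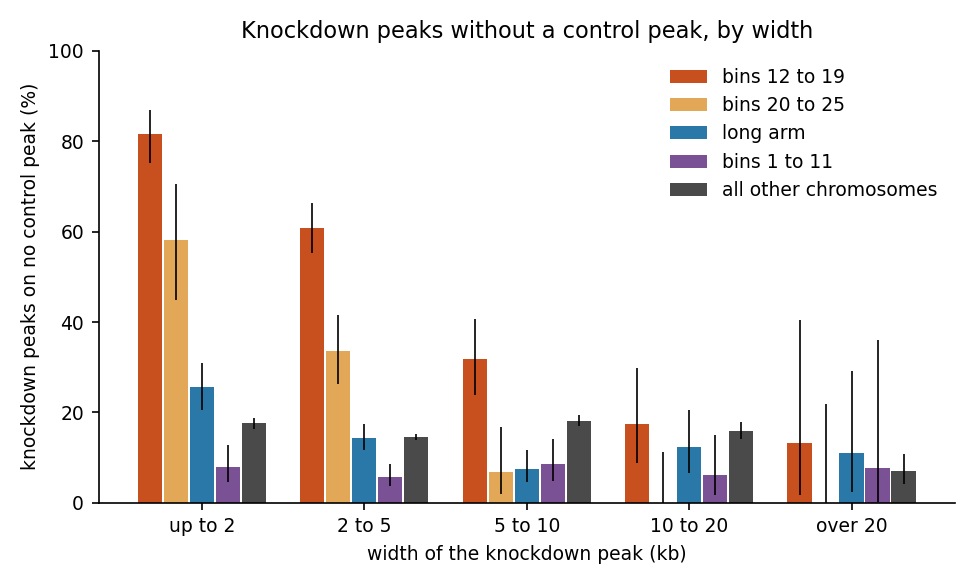
Share of knockdown peaks that overlap no control peak, by width of the knockdown peak, in 4 stretches of chromosome 1 and on all other chromosomes (error bars: exact binomial 95% intervals). At up to 2 kb the bar of bins 12 to 19 stands at 81.6%, against 8.02% in bins 1 to 11, and above 20 kb the intervals overlap.

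Many of these peaks were far from any control peak. At 55 to 95 Mb, 131 of the 397 lay more than 100 kb from the nearest control peak, or 33.0% (28.4 to 37.9%), and the median distance was 32.2 kb. At 0 to 55 Mb none of 56 did, which allows a share of up to 6.38% (exact binomial limit), with a median distance of 17.1 kb. On the other chromosomes 11.7% did (10.6 to 12.9%), with a median of 19.6 kb. In the window from 66 to 67 Mb, 45 knockdown peaks covered 186.8 kb, and there was no control peak. The window before it, 65 to 66 Mb, had 224.3 kb in the knockdown and 88.7 kb in the control, and that from 68 to 69 Mb had 120.3 kb in the knockdown and 20.7 kb in the control.

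The false discovery rate (FDR) of the caller was high for these peaks. Their median FDR was 80.5% at 55 to 95 Mb, against 74.6% for such peaks of the other chromosomes. Over all knockdown peaks of the genome the median was 68.9%, so a high FDR was not particular to this stretch. Of the 397 peaks, 2 reached 5% or less, against 66 of 3251 on the other chromosomes. Over the chromosome, 190 of 3092 knockdown peaks did so (6.14%), against 5.30% in the whole knockdown list. Of the control peaks on chromosome 1, 1793 of 3491 (51.4%) reached it, against 50.5% in the whole control list. At 55 to 95 Mb the counts were 25 of 703 knockdown peaks and 217 of 446 control peaks. When both lists were limited to such peaks, the covered length share was 21.7% at 55 to 95 Mb and 10.9% at 0 to 55 Mb, so the excess of knockdown length did not hold under that limit while the order of the stretches did. The limit was stricter in the knockdown list, where the lowest score that passed was 939.74, against 227.88 in the control list. With a score of at least 227.88 in both lists the shares were 98.6% at 55 to 95 Mb and 35.1% at 0 to 55 Mb.

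Keeping of a control peak varied less with its strength at 55 to 95 Mb, and in the adjoining stretch from 95 Mb to the arm's end, than at 0 to 55 Mb. Classes are the deciles of fold enrichment over the whole control list. In the lowest decile, control peaks were kept in 21 of 40 cases at 55 to 95 Mb, or 52.5% (36.1 to 68.5%), in 18 of 33 from 95 Mb to the arm's end, or 54.5% (36.4 to 71.9%), and in 9 of 80 at 0 to 55 Mb, or 11.25% (5.28 to 20.3%). The other chromosomes had 6.72% (5.89 to 7.62%). In the highest decile the shares were 78.8% at 55 to 95 Mb (61.1 to 91.0%), 83.3% from 95 Mb to the arm's end (65.3 to 94.4%), 171 of 180 at 0 to 55 Mb (90.7 to 97.7%) and 90.2% on the other chromosomes (89.1 to 91.2%). The long arm had 26.8% in the lowest decile (18.3 to 36.8%) and 92.3% in the highest (86.7 to 96.1%).

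**Figure D4:**
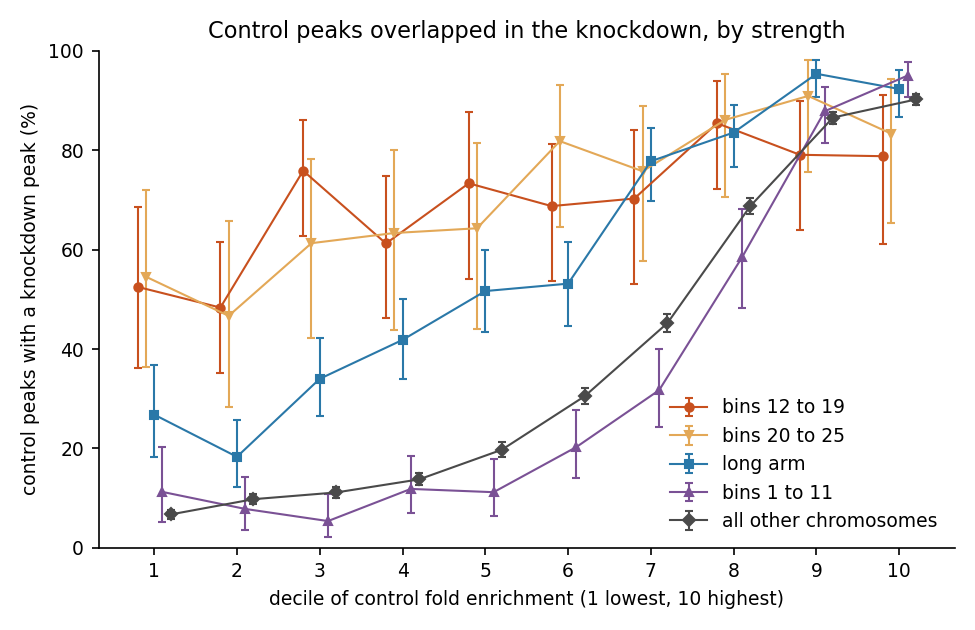
Share of control peaks with a knockdown peak over them, by decile of control fold enrichment, in bins 12 to 19, bins 20 to 25, the long arm, bins 1 to 11 and all other chromosomes (error bars: exact binomial 95% intervals). In the lowest decile the points run from 6.72% on the other chromosomes to 52.5% in bins 12 to 19 and 54.5% in bins 20 to 25, and in the highest decile from 78.8% in bins 12 to 19 upwards.

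Peak width gave the same picture. Control peaks of up to 2 kb were kept in 47 of 89 cases at 55 to 95 Mb, or 52.8% (41.9 to 63.5%), in 40 of 75 from 95 Mb to the arm's end, or 53.3% (41.4 to 64.9%), and in 15 of 292 at 0 to 55 Mb, or 5.14% (2.90 to 8.33%). The long arm had 22.2% (17.8 to 27.1%) and the other chromosomes 7.79% (7.15 to 8.46%). Control peaks above 20 kb were kept in 16 of 20 cases at 55 to 95 Mb, in 16 of 21 from 95 Mb to the arm's end and in 69 of 74 at 0 to 55 Mb. On the whole chromosome 172 of 196 control peaks of 20 kb or more had a knockdown peak over them (87.8%), against 84.2% over the genome, and 120 of these 172 were overlapped by 2 or more knockdown peaks, against 74.2% over the genome. When its deciles of fold enrichment were weighted as on the other chromosomes, chromosome 1 kept 51.8% of its control peaks, against 38.0% there. Weighted likewise, 55 to 95 Mb kept 69.2%, 95 Mb to the arm's end 70.7%, the long arm 57.3% and 0 to 55 Mb 33.9%. Unweighted, 68.6% were kept at 55 to 95 Mb (64.1 to 72.9%) and 71.3% from 95 Mb to the arm's end (66.0 to 76.2%).

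In peaks found in both lists, tag density was lower in the knockdown, by less on chromosome 1 than on the other chromosomes together. Density is given as tags per kb per 1000000 filtered tags, over pairs of peaks that overlap each other by at least 50%. Chromosome 1 had 1157 of the 7543 such pairs. The median pair had a density of 0.988 in the knockdown and 1.35 in the control, and the log2 ratio, knockdown over control, had a median of -0.46 (exact order-statistic 95% interval -0.48 to -0.44). On the other chromosomes together it was -0.61 (-0.62 to -0.60). Chromosome 5 alone had -0.477, inside the interval of chromosome 1. The knockdown was at least 1.5 times lower in 401 of the 1157 pairs (34.7%), against 50.1% over all pairs. In none was it at least 1.5 times higher, as over the genome (0.00%). It was lower beyond counting error in 809 of the 1157 pairs, against 6034 of all 7543, and higher in 3, against 8 or 0.106% over all pairs, by an exact conditional binomial test with Benjamini-Hochberg adjustment. Such a test sets one pooled library against another and says nothing of replicates.

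Within the chromosome the ratio of the matched pairs differed with position. At 0 to 55 Mb the median log2 ratio was -0.72 (-0.78 to -0.68, 252 pairs), with median densities of 1.03 in the knockdown and 1.72 in the control. At 55 to 95 Mb it was -0.28 (-0.34 to -0.22, 193 pairs), with median densities of 1.003 in the knockdown and 1.198 in the control. From 95 Mb to the arm's end it was -0.36 and on the long arm -0.45. Bin medians ran from -0.96 in bin 3 (10 to 15 Mb) to -0.07 in bin 15 (70 to 75 Mb, 9 pairs). Peak bounds differed too. The knockdown peak was the narrower of the pair in 90.1% of pairs at 0 to 55 Mb, in 30.6% at 55 to 95 Mb and in 83.9% on the other chromosomes. Each density is taken over its own list's bounds, so wider knockdown bounds enter the ratio at 55 to 95 Mb. A pair also needs a called peak in both lists. There were 252 pairs for 1311 control peaks at 0 to 55 Mb and 193 for 446 at 55 to 95 Mb. The stretches differed mainly in the control density of their pairs, and the ratio was not compared at like control density.

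**Figure D5:**
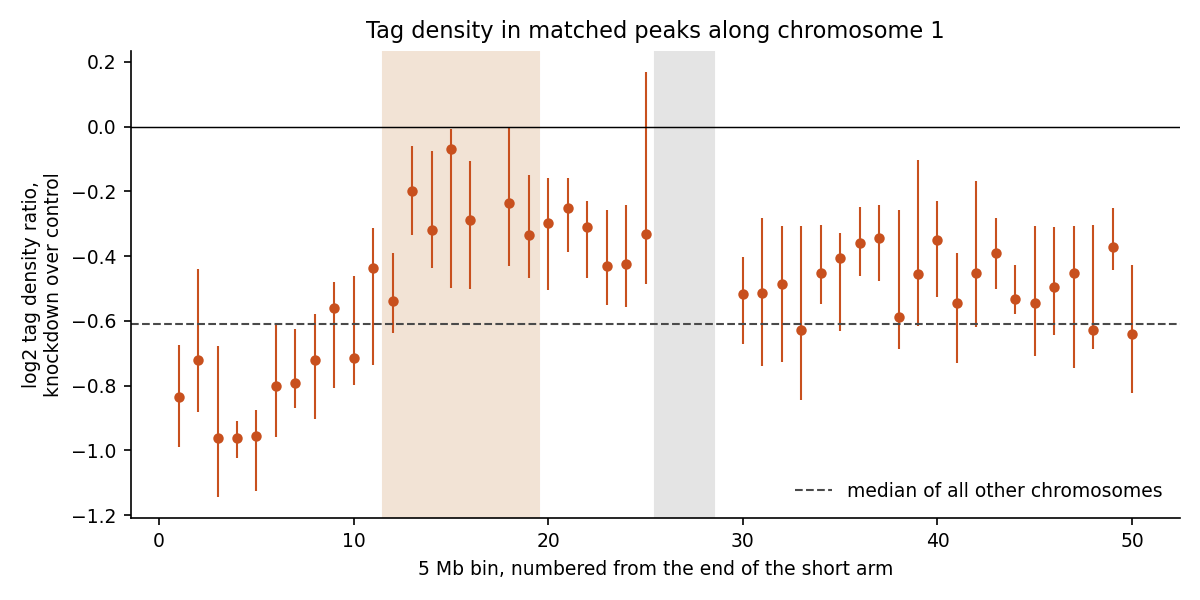
Median log2 ratio of tag density, knockdown over control, in matched peaks of each 5 Mb bin with at least 5 pairs (bars: quartiles of the pairs), with the median of all other chromosomes dashed at -0.61. Bins 1 to 8 lie below the dashed line, and the plotted bins of the orange band (12 to 19) lie above it, from -0.54 in bin 12 to -0.07 in bin 15.

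The long arm had no stretch like that at 55 to 95 Mb. Of its 20 bins that entered the order of shares, 19 were below 100%. The median was 65.1% (quartiles 61.6 and 78.5%), against 44.4% for the 473 bins of the other chromosomes. Bin 35 (170 to 175 Mb) had 323.8 kb in the knockdown and 289.0 kb in the control, and bin 39 (190 to 195 Mb) had 134.8 kb in the knockdown and 138.8 kb in the control. The lowest shares were 39.7% in bin 38 (185 to 190 Mb), 41.8% in bin 30 (145 to 150 Mb) and 47.7% in bin 33 (160 to 165 Mb). Bin 31 (150 to 155 Mb) held the most knockdown length of the arm, with 684.4 kb against 835.4 kb in the control, and its 15 knockdown peaks at an FDR of up to 5% were the most of any bin on the chromosome.

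The strongest knockdown peaks of the short arm lay on control peaks of higher density. The highest in fold enrichment (14.54) ran from 67871846 to 67896063 of chromosome 1, with a density of 2.95 in the knockdown (Poisson 95% interval 2.87 to 3.04), against 4.64 in the control peak over it (4.51 to 4.77). The next, from 78406293 to 78445050, had 2.70 (2.64 to 2.77) in the knockdown, against 4.35 (4.25 to 4.44) in the control. The third, from 33117095 to 33148979, had 1.65 (1.59 to 1.70) in the knockdown and 3.22 (3.14 to 3.31) in the control. In each of the 3 the knockdown density was below the control's beyond counting error.

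On the long arm the same held for the 3 strongest knockdown peaks. That from 207263415 to 207274178, with a fold enrichment of 13.53, had a density of 2.57 (2.46 to 2.69) in the knockdown, against 4.27 (4.10 to 4.44) in the control, and its control counterpart was also the strongest control peak of the arm. That from 247315623 to 247332549 had 1.48 (1.41 to 1.55) in the knockdown, against 2.27 (2.20 to 2.35) in the control. There the knockdown peak was 16.9 kb wide and the control peak 31.6 kb, so the densities are not of the same sequence. That from 182809478 to 182858171 had 2.60 (2.55 to 2.66) in the knockdown, against 5.68 (5.59 to 5.78) in the control. At 48.7 kb it was also the widest knockdown peak of the chromosome, and its control counterpart was as wide, at 48.7 kb. The caller gave this knockdown peak an FDR of 52.8%.

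Of the 3 strongest control peaks of the short arm, 1 had a knockdown peak. It lay from 116920509 to 116950685, with a density of 2.16 (2.10 to 2.23) in the knockdown, against 4.94 (4.82 to 5.05) in the control. The other two had none, and they lead the control peaks without a knockdown peak. From 43390718 to 43424984 the control density was 5.39 (5.28 to 5.51) over 34.3 kb, and the nearest knockdown peak was 146.2 kb away. From 16449239 to 16481657 it was 4.22 (4.11 to 4.32), with the nearest knockdown peak 99.8 kb away. The next 3 control peaks without one lay from 160258199 to 160311523 with a control density of 4.39, from 41446518 to 41480373 with 3.40 and from 169079265 to 169103695 with 3.59. Tags of the knockdown under these 5 peaks are not in the lists, so the level there is unknown. The median density of the chromosome's control peaks was 1.09.

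The other two of the 3 strongest control peaks of the long arm had a knockdown peak. From 155881445 to 155904111 the density was 2.56 (2.48 to 2.64) in the knockdown, against 5.23 (5.10 to 5.37) in the control. From 156093631 to 156109558 it was 2.06 (1.97 to 2.14) in the knockdown and 3.86 (3.72 to 4.00) in the control.

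Among the knockdown peaks on no control peak, the 5 with the highest fold enrichment were all wider than its median of 2.31 kb. The first lay at 55 to 95 Mb, from 66820770 to 66839792, with a density of 1.404 (1.340 to 1.471) and an FDR of 2.44%, and the nearest control peak was 565.8 kb away. The other 4 were on the long arm. They lay from 171523697 to 171551314 with a density of 1.45 (1.395 to 1.505), from 228429833 to 228436580 with 1.33 (1.22 to 1.44), and as neighbours from 220181590 to 220200391 with 1.29 and from 220200552 to 220215681 with 1.33. The second of the 5 had an FDR of 73.0%, the third 0.35% and the last 2 had 23.01 and 43.05%. Summed over all knockdown peaks of the chromosome, the density was 1.15.

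The 3 widest control peaks were not matched by a knockdown peak of like width. The widest, from 186280301 to 186343170 (62.9 kb, density 3.95), had no knockdown peak, though one lay 4.81 kb away. From 39883599 to 39940780, 1 knockdown peak covered 10.5% of the control peak, with a density of 0.858 (0.770 to 0.954) in the knockdown, against 3.45 (3.38 to 3.52) in the control. From 39773839 to 39830176, 9 knockdown peaks covered 63.4% of the control peak, with 0.955 (0.916 to 0.995) in the knockdown, against 2.24 (2.18 to 2.30) in the control. For these control peaks of 57.2 and 56.3 kb the knockdown density is over the knockdown peaks alone, 5.98 and 35.7 kb. The densities are thus not of the same sequence. The widest knockdown peaks after that of 48.7 kb were from 154194182 to 154237493 (43.3 kb) and the peak from 78406293 named above (38.8 kb). The peak from 154194182 had a density of 2.11 (2.06 to 2.17) in the knockdown, against 3.68 (3.604 to 3.762) in the control.

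Of the 429 matched pairs with at least 500 control tags, the 3 with the lowest ratio all lay at 0 to 55 Mb. The knockdown peak from 24971086 to 25001454 had a density of 1.96 (1.90 to 2.02), against 5.76 in the control (5.64 to 5.88), a log2 ratio of -1.56. Those from 11146539 to 11157951 and from 11073026 to 11087471 had 1.54 and 1.77 in the knockdown and 4.29 and 4.64 in the control, with log2 ratios of -1.47 and -1.39. The highest ratio was at 55 to 95 Mb, from 70877626 to 70908036, with 1.90 (1.84 to 1.96) in the knockdown against 1.45 (1.37 to 1.52) in the control, a log2 ratio of 0.39. There the knockdown peak was 30.4 kb wide and the control peak 20.4 kb. The next, from 120455124 to 120473816, had 1.26 (1.195 to 1.320) in the knockdown against 1.15 (1.072 to 1.229) in the control. From 156442727 to 156453667 the density was 1.28 (1.20 to 1.36) in the knockdown, against 1.22 (1.13 to 1.32) in the control. The intervals overlapped in both of these pairs, though the adjusted p of the exact binomial test was 0.0457 for the first and 0.414 for the second. All these pairs were picked by their ratio, so the ratios are descriptions.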

How the data were processed

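Peak lists of 8 libraries in 4 groups of 2 replicates were used. The submitters' processing notes name the hg19 build, FastQC 0.11.5 and Bowtie 1.1.2. Peak calling was by MACS 1.4.2, per the file headers, at a p-value limit of 1e-05 from 1 merged alignment of immunoprecipitated tags against 1 of input per condition. The tag counts deposited by the authors are whole immunoprecipitated tags per peak, with at most 1 tag per position per the file headers. The deposited score is minus 10 times the log10 of the caller's p-value, the deposited fold enrichment is the caller's ratio over local background, and the deposited FDR is in percent. Filtered immunoprecipitated tags were 67053273 in the knockdown and 47880817 in the control, and filtered input tags 69095038 and 67158956, per the file headers. The shorter deposited lists held exactly the peaks with an FDR of 5% or less.

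Peaks were called kept at 1 bp of overlap. Lengths were split at bin borders, and peaks were put in bins and stretches by midpoint. Intervals of shares and densities are exact and cover counting error only, and those of median ratios cover the spread between pairs. Intervals of shares and medians treat peaks or pairs as independent, although knockdown peaks on no control peak were clustered. None covers the spread between replicates. The members, lists and rules were chosen with earlier results of these data known, and the stretches of the short arm after the bins were seen. Named peaks were the 3 of highest fold enrichment per arm and list, the 5 highest of each list with none in the other, the 3 widest per list, and the 3 highest and 3 lowest pair ratios. Results by gene, and the sequences under peaks, need the hg19 genome and were not analysed here. Python 3.11.15, pandas 2.3.3, NumPy 2.4.6 and SciPy 1.17.1 were used, with matplotlib 3.10.9, and the steps were tested on simulated data.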

Additional observations from a re-analysis of the deposited data

How the results depend on the processing

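The median pair ratio stayed below 0 under every alternative run made on it. In the runs made on both stretches, 55 to 95 Mb had a higher covered length share than 0 to 55 Mb. It also had a higher share of control peaks kept. The stretches were set after their shares were seen, so this order is a description and no further support. At an FDR of up to 5% the kept shares were close, 11.1% of 217 control peaks against 8.99% of 701. The sizes moved, and the cause was not tested. Limits on the peaks change which peaks enter both lists, and the FDR limit asked for higher scores in the knockdown list. Covered length shares are given for chromosome 1, the short arm, the long arm, 0 to 55 Mb and 55 to 95 Mb in that order. They were 13.8, 14.2, 13.3, 10.9 and 21.7% at an FDR of up to 5%, 63.3, 62.9, 63.9, 41.9 and 114.3% at a score of at least 100, and 36.4, 36.3, 36.6, 26.9 and 54.0% at a fold enrichment of at least 5. With 1 score limit of 227.88 they were 53.5, 52.7, 54.8, 35.1 and 98.6%. Merging peaks within 3000 bp gave 127.9% at 55 to 95 Mb. Leaving out bin 14 gave 66.4% for the chromosome and 64.8% for the short arm, and leaving out bin 35 gave 67.3% for the long arm. Without bin 19, the one with most knockdown length, the short arm had 67.2%. Without 55 to 95 Mb the chromosome had 60.7% and the short arm 54.0%.

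Shares of control peaks kept, in the same order, were 10.04, 10.2, 9.83, 8.99 and 11.1% at that FDR, 27.1, 26.6, 27.8, 21.6 and 34.2% at that fold enrichment, and 43.3, 41.6, 45.8, 32.4 and 57.1% with 1 score limit. They were 62.3, 59.5, 66.4, 49.2 and 75.5% after merging, 38.1, 35.2, 42.3, 19.6 and 61.7% when 1 peak had to cover 50% of the control peak, and 33.1, 29.03, 39.2, 19.2 and 43.3% at a reciprocal overlap of 50%. A score of at least 100 gave 50.8% for the chromosome and 55.8% for the long arm. Without 55 to 95 Mb the chromosome kept 50.8% and the short arm 44.04%. Weighted by deciles of tag count or of width in place of fold enrichment, the chromosome kept 54.4 or 54.2%.

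Knockdown peaks on a control peak made up 76.1% on chromosome 1, and 96.3% at that FDR, 77.99% at that score, 87.4% at that fold enrichment, 77.7% with 1 score limit, 79.1% after merging, 72.5% with 50% of the peak covered and 37.4% at a reciprocal overlap of 50%. The share was 79.3% without bin 14 and 85.6% without 55 to 95 Mb.

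Median log2 pair ratios, in the same order, were -0.71, -0.68, -0.73, -0.86 and -0.41 at that FDR, -0.66, -0.64, -0.69, -0.86 and -0.40 at that fold enrichment, -0.55, -0.55, -0.55, -0.83 and -0.36 with 1 score limit, and -0.50, -0.50, -0.48, -0.80 and -0.36 at a reciprocal overlap of 80%. At that score the chromosome, short arm and long arm had -0.50, -0.50 and -0.49. The share of bins with more knockdown length was 13.95% in bins shifted by 2.5 Mb and 19.53% in 1 Mb bins. The alternatives without 55 to 95 Mb and those on the stretches were chosen after seeing the data.

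No paired analysis was possible because each deposited list pools both replicates, so neither a replicate block nor a fit without one replicate was run. Results by gene were not run. The knockdown immunoprecipitate held 67053273 filtered tags and the control one 47880817, so depth and condition cannot be told apart in the number of weak peaks called.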
